A study of Homo sapiens with 8 samples.

Results

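The genes of cholesterol synthesis, uptake and sterol sensing were measured by RNA sequencing in the human skin fibroblast line BJ, in which the long noncoding RNA PURPL was overexpressed or knocked down. The members were 33 genes chosen by name, and 33 of 33 were found among the 59370 genes kept from the deposited tables. Each name stood in a single row of each table. In the overexpression arm, OE-PURPL libraries (labelled PURPL overexpression) were set against PCDNA libraries. In the knockdown arm, ASO-PURPL libraries (labelled PURPL knockdown, from an antisense oligonucleotide) were set against ASO-NC libraries, which received a control oligonucleotide. Each of the 4 groups held 2 libraries, and all cells were grown in the same medium with fetal bovine serum. The promoter that drives PURPL, whether the cells were clones or pools, and the number of passages are not stated. The members comprise 7 enzymes from acetyl-CoA to farnesyl pyrophosphate, 11 enzymes from squalene to cholesterol, 5 proteins of sterol sensing and 10 genes of transport, storage and efflux.

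Cells make cholesterol from acetyl-CoA through mevalonate, farnesyl pyrophosphate, squalene and lanosterol, and they also take it up from lipoproteins. When sterol in the endoplasmic reticulum is low, the escort protein SCAP carries the precursors of the transcription factors SREBF1 and SREBF2 to the Golgi, where they are cut, and the released parts switch on the genes of synthesis and uptake. When sterol is high, INSIG1 and INSIG2 hold SCAP back, and oxysterols activate the nuclear receptors NR1H2 and NR1H3 (the liver X receptors), which switch on cholesterol efflux. Much of this feedback was worked out in cultured human skin fibroblasts.

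Levels are in FPKM (reads per length of transcript and size of library), a unit inferred from the named software and the values. Read depth is unknown, and a level therefore has no counting error beside it. Changes are log2 ratios of FPKM plus 1, which understate the changes of genes with low levels. In OE-PURPL the level of PURPL itself was 153 and 238 FPKM, and in PCDNA it was 5.42 and 5.73 FPKM. It was at 6.31 and 4.24 FPKM in the ASO-PURPL libraries and 16.2 and 9.74 FPKM in the ASO-NC libraries. PURPL rose in overexpression (log2 change 4.87, adjusted p = 0.00511), and in knockdown its log2 change of -1.13 did not pass the test (adjusted p = 0.374). With any of the 4 pairs left out, 0 or 1 genes passed in overexpression. The 10 fibroblast markers listed each reached 1 FPKM in all libraries, and their sum ran from 3673 to 5698 FPKM. Summed markers of other cell types were low, at most 36.8 FPKM for keratinocytes, 4.09 FPKM for melanocytes, 1.66 FPKM for endothelium and 1.85 FPKM for hepatocytes. The 5 immune markers summed to 286.8 to 355 FPKM in the overexpression arm and 59.1 to 81.3 FPKM in the knockdown arm, nearly all of it CD68, which is a lysosomal protein; PTPRC stayed at or below 0.303 FPKM and CD3E at or below 0.0907 FPKM. The ASO-NC replicates came from 2 separate tables and differed in level for several members, such as PMVK (phosphomevalonate kinase) at 30.2 and 15.5 FPKM.

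SREBF factors act on short promoter elements together with NF-Y, a factor that binds CCAAT boxes, so the promoters of the members were searched for 2 letter patterns on both strands. The patterns were TCACNCCAC, a form of the sterol regulatory element, and CCAAT, which reads ATTGG on the other strand. A single site cannot count as both, and the 2 matches in SREBF2 do not overlap. RefSeq promoters (GRCh38.p14) were matched for 29 of the 33 members, with 41 promoters in all, and the 250 bases upstream of each start were searched. TCACNCCAC stood in 1 of the 41 member promoters (2.44%), that of SREBF2, against 0.883% of 35116 promoters of all genes. A CCAAT box stood in 22 member promoters (53.7%), against 32% of all promoters. At least 3 boxes stood in 7 member promoters (17.1%), against 2.93% of all promoters and 4.15% of the promoters of genes tested. In these counts the run CCAATTGG gives 2 boxes, 1 on each strand, and a promoter of IDI1 reaches 3 only in this way. A match is a run of letters, not a bound site. The stretches of 3 genes are shown, in lower case with the matches in capitals. They are cut to the bases upstream of the gene's outermost annotated start, so 180, 204 and 224 of the 250 bases searched are printed. MVD (chr16:88663162-88663341, minus strand) is shown because it had the highest log2 change of the members in overexpression, MSMO1 (chr4:165327419-165327622, plus strand) because it holds 4 boxes in the 250 bases searched (3 of them printed), against 3 for MVD, while its level was lower in overexpression, and SREBF2 (chr22:41832855-41833078, plus strand) because it holds the sterol regulatory element beside a CCAAT box.
MVD: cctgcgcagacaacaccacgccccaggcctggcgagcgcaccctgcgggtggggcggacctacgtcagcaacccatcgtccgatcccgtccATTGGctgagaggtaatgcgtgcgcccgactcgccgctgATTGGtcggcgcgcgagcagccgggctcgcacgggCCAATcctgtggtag
MSMO1: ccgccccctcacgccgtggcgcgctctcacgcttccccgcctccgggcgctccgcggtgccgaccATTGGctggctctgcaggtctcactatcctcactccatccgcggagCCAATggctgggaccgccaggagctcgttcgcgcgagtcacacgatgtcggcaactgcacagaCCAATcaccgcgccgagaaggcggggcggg
SREBF2: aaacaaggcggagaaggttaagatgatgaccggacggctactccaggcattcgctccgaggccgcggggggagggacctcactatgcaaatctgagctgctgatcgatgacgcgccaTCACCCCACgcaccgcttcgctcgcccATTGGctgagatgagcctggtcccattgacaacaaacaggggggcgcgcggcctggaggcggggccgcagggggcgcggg

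The 33 members summed to 1572 and 1691 FPKM in the OE-PURPL libraries, 1510 and 1475 FPKM in the PCDNA libraries, 2291 and 1673 FPKM in the ASO-PURPL libraries and 2417 and 1910 FPKM in the ASO-NC libraries. The highest member in every library was NPC2, a protein that carries cholesterol inside lysosomes, and the lowest was ABCG1, an efflux transporter. The 18 synthesis enzymes made up much of the sum: 712.4 and 766 FPKM in the OE-PURPL libraries, 683.7 and 703.5 FPKM in the PCDNA libraries, 1194 and 959.1 FPKM in the ASO-PURPL libraries, and 1378 and 1125 FPKM in the ASO-NC libraries. The 4 libraries of the overexpression arm lay below the 4 libraries of the knockdown arm, with no overlap. As a share of all summed FPKM the enzymes held 0.126% and 0.131% in OE-PURPL, 0.13% and 0.129% in PCDNA, 0.204% and 0.207% in ASO-PURPL and 0.247% and 0.228% in ASO-NC. The arms also did not overlap on this scale, which takes out the total of each library. Replicate 1 of the arms came from separate tables that may have been normalized separately. How often other gene sets part the arms in this way was not counted. Genes outside the pathway also parted the arms, such as the interferon-stimulated gene ISG15, which was higher in the overexpression arm. In bulk RNA, fewer cells of a kind and less RNA per cell cannot be told apart.

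**Figure D1:**
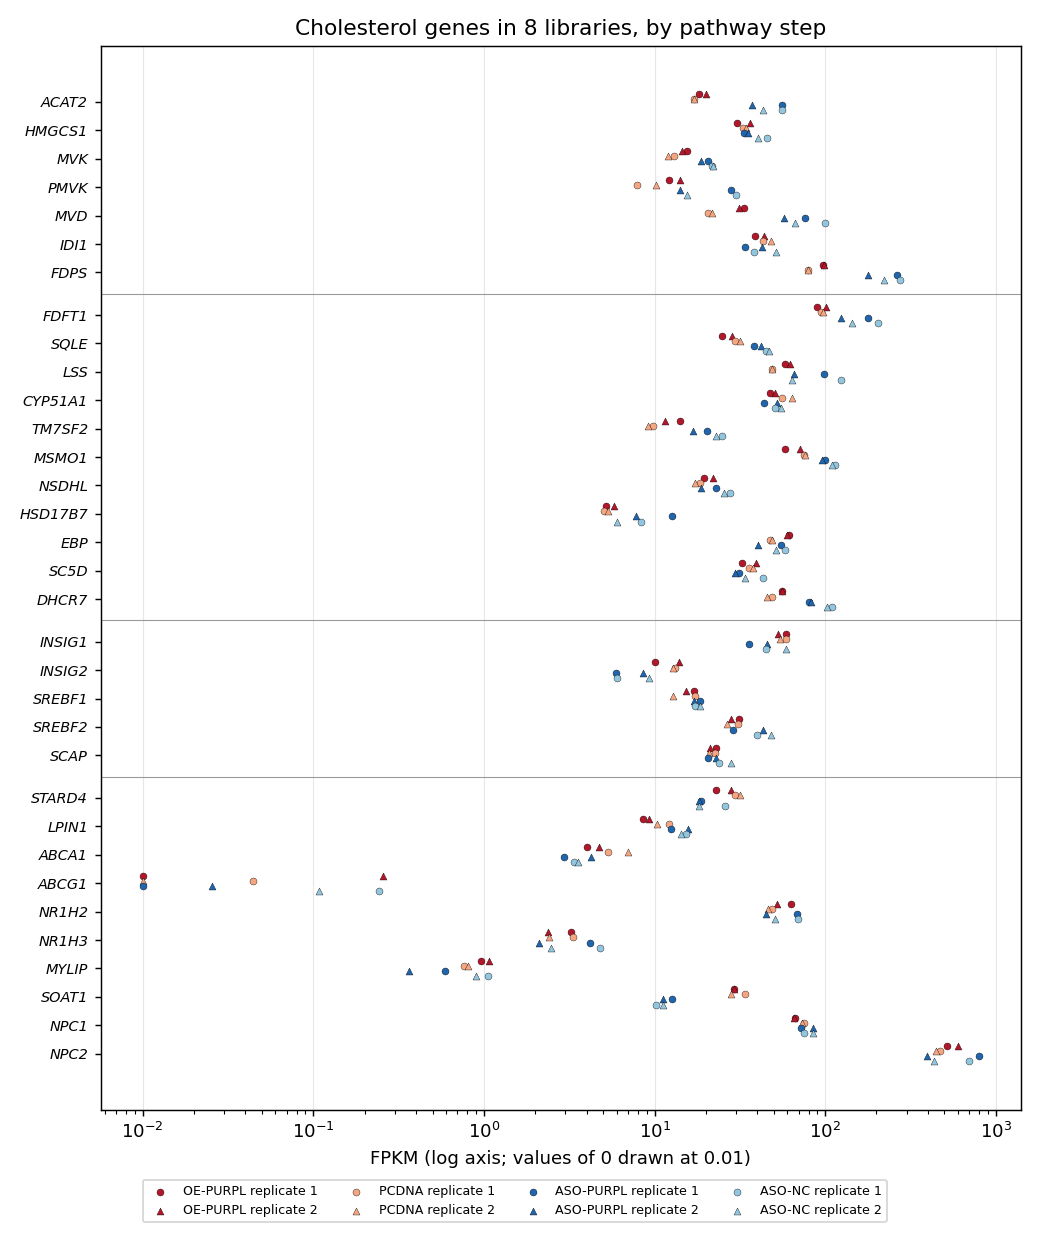
FPKM on a log axis for each of the 33 members (rows, by pathway step), with a point for each of the 8 libraries; red and orange points are OE-PURPL and PCDNA, dark and light blue points are ASO-PURPL and ASO-NC, and values of 0 are drawn at 0.01. FDPS, MVD and ACAT2 have all blue points right of the red and orange ones, and SOAT1 has them left.

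**Figure D2:**
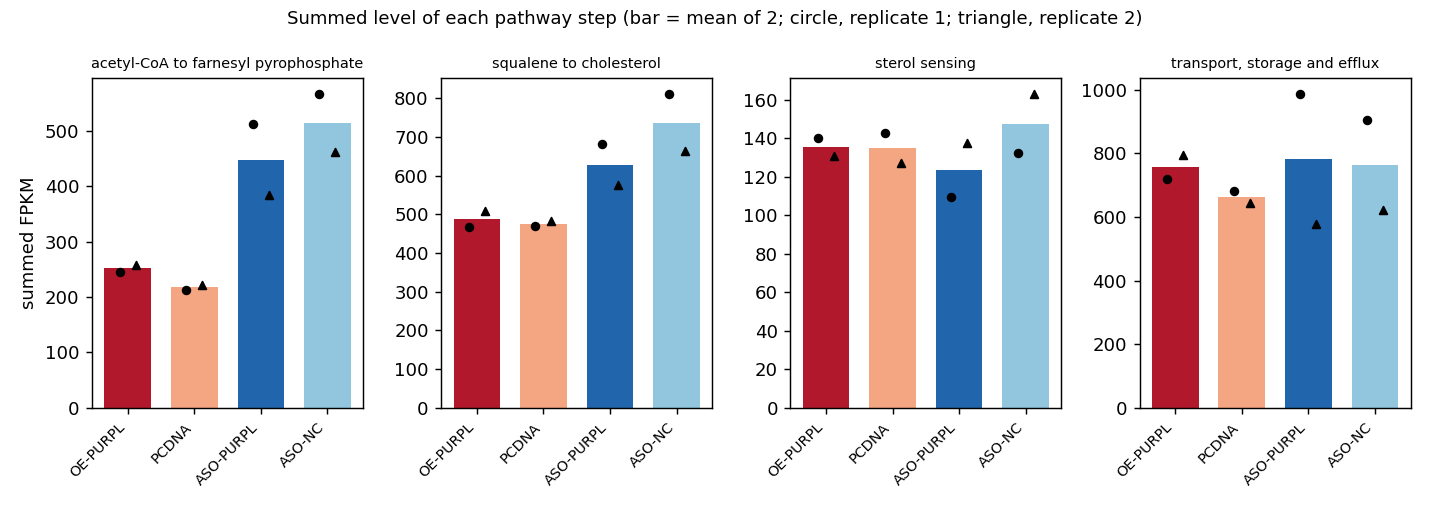
Summed FPKM of the genes of each pathway step by group; bars are means of 2 libraries, circles replicate 1 and triangles replicate 2. The mevalonate step sums to between 213.3 and 258.3 FPKM in the overexpression arm and between 383.8 and 567 FPKM in the knockdown arm.

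The step from acetyl-CoA to farnesyl pyrophosphate had the widest gap between the arms of the 4 steps, as a ratio of sums, and it is described here by its control libraries, PCDNA over ASO-NC. With 1 library per group inside a table, and replicate 1 of the groups in separate tables, this comparison has values but no test. PCDNA and ASO-NC differ in what the cells received. In replicate 1 they differ in the deposited table as well, and there these cannot be told apart, while replicate 2 of both groups came from the same table. The 7 genes of this step summed to 213.3 and 222.3 FPKM in PCDNA and 567 and 461.5 FPKM in ASO-NC. Of the 31 members tested, 20 were lower in PCDNA in both replicates (64.5%, against 35.1% of all genes tested) and 5 were higher (16.1%, against 35.7%). At least 1 lower on the log2 scale in both replicates were 5 members, where 2.94% of all genes were, and at least 1 higher was 1 member, where 4.71% of all genes were. The median log2 ratio of the members was -0.46 in replicate 1 and -0.39 in replicate 2, against -0.05 and 0.05 over all genes tested. Among the 18 synthesis enzymes 15 were lower in both replicates and 1 was higher, with medians of -0.66 and -0.54.

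MVD, mevalonate diphosphate decarboxylase, makes the isoprenoid unit of the pathway and lies at chr16:88651935-88663161 (minus strand). MVD was at 20.5 and 21.6 FPKM in PCDNA and 100.2 and 66.3 FPKM in ASO-NC, log2 ratios of -2.24 and -1.58. FDPS, which joins isoprenoid units into farnesyl pyrophosphate (chr1:155308748-155320666, plus strand), was at 78.8 and 79.1 FPKM in PCDNA and 275 and 222 FPKM in ASO-NC, ratios of -1.79 and -1.48. Its 8 pseudogenes named in GENCODE were at most 1.07 FPKM. ACAT2, which makes acetoacetyl-CoA in the cytosol (chr6:159760328-159779055, plus strand), was at 17.0 and 17.1 FPKM in PCDNA and 55.6 and 43.2 FPKM in ASO-NC, ratios of -1.65 and -1.28. ACAT2 overlaps exons of SOD2 and TCP1 on the other strand; SOD2 was at 898 and 897 FPKM in PCDNA and 149.6 and 125 FPKM in ASO-NC, the opposite direction, and no source states whether counting used strand, so the level of ACAT2 is uncertain. DHCR7, which catalyses a last step of the pathway (chr11:71428193-71452868, minus strand), was at 49.1 and 45.6 FPKM in PCDNA and 109 and 103 FPKM in ASO-NC, ratios of -1.14 and -1.15. TM7SF2, a sterol reductase (chr11:65111845-65116384, plus strand), was at 9.78 and 9.15 FPKM in PCDNA and 24.8 and 23.0 FPKM in ASO-NC, ratios of -1.26 and -1.24. TM7SF2 shares exon bases on the same strand with VPS51, which was at 16.9 and 15.7 FPKM in PCDNA and 76.6 and 53.3 FPKM in ASO-NC, so reads of the 2 genes may not have been told apart. MVK, NPC1 and NR1H3 also overlap exons of a neighbour on the other strand (MMAB, RMC1 and ACP2), and their levels carry the same doubt.

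SOAT1, which joins cholesterol to fatty acids for storage (chr1:179293714-179358680, plus strand), went the other way. SOAT1 was at 34.1 and 28.2 FPKM in PCDNA and 10.1 and 11.3 FPKM in ASO-NC, log2 ratios of 1.65 and 1.25. MVK (mevalonate kinase), at 13.0 and 12 FPKM in PCDNA and 21.7 and 22.2 FPKM in ASO-NC, had ratios of -0.70 and -0.83. FDFT1, which makes squalene, was at 94.7 and 96.9 FPKM in PCDNA and 204 and 144 FPKM in ASO-NC, ratios of -1.10 and -0.57. The replicates disagreed in size for PMVK, with ratios of -1.81 and -0.56, and for LSS (lanosterol synthase), with -1.33 and -0.40. With replicate 1 alone 8 members were at least 1 lower, where 10.9% of all genes were, and 2 at least 1 higher, where 7.99% were. With a trend on transcript length and GC content removed, 3 members were at least 1 lower in both replicates and 0 were higher, where 2.12% and 4.36% of 13339 genes were. DHCR7 at -1.02 and -0.97, TM7SF2 at -1.05 and -0.94, and SOAT1 at 1.40 and 0.99 each missed that size in replicate 2. In that version 18 of the 18 synthesis enzymes were lower in both replicates, against 35.3% of the genes.

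**Figure D3:**
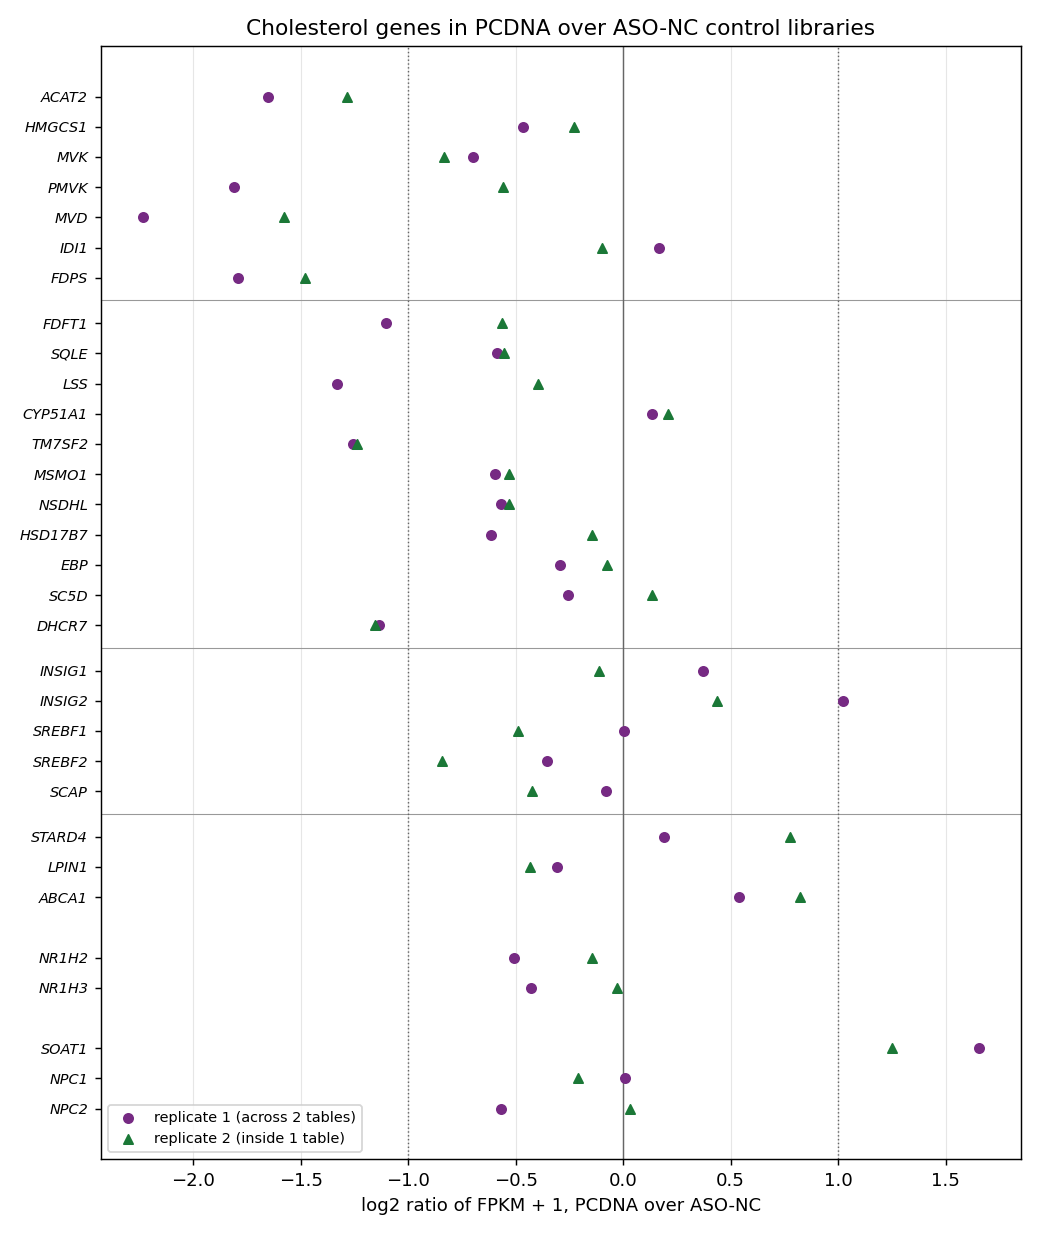
Log2 ratio of FPKM plus 1, PCDNA over ASO-NC, for the 31 tested members, with a point for each replicate. MVD lies furthest left and SOAT1 furthest right in both replicates.

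The control groups differed in other ways that move with these values. The interferon-stimulated gene ISG15 was at 3252 and 2975 FPKM in PCDNA and 116 and 187 FPKM in ASO-NC. The proliferation gene MKI67 was at 7.68 and 7.32 FPKM in PCDNA and 1.04 and 1.39 FPKM in ASO-NC. CD68 was at 315 and 284 FPKM in PCDNA and 77.7 and 65.1 FPKM in ASO-NC. The part of these differences in the sterol gene values was not tested. ISG15 and MKI67, like SOD2 and VPS51, were chosen for display with their values seen.

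In overexpression the enzymes of the mevalonate step were mostly higher in OE-PURPL than in PCDNA, but no member passed the test. The test was limma on the 4 within-table ratios with Benjamini-Hochberg adjustment over 14977 genes, of which 4 passed (0.0267%). Of the 31 members tested, 15 were higher in both pairs (48.4%, against 32.6% of all genes) and 10 were lower (32.3%, against 31.1%). An unadjusted p under 0.05 was reached by 10 members and by 2061 of all genes (13.8%), and the lowest adjusted p of a member was 0.324. The median change of the members was 0.03, against 0.00 over all genes tested. MVD was at 33.4 and 31.1 FPKM in OE-PURPL and 20.5 and 21.6 FPKM in PCDNA, a log2 change of 0.59 (SE 0.099, adjusted p = 0.324). PMVK, which adds the second phosphate to mevalonate, was at 12.2 and 14.1 FPKM in OE-PURPL and 7.88 and 10.2 FPKM in PCDNA, a log2 change of 0.50 (adjusted p = 0.324). FDPS was at 97.3 and 98.5 FPKM in OE-PURPL and 78.8 and 79.1 FPKM in PCDNA, a log2 change of 0.31 (adjusted p = 0.331). In the mevalonate step 5 of 7 genes were higher in both pairs and 1, the isomerase IDI1, was lower (log2 change -0.14). HMGCS1, which makes hydroxymethylglutaryl-CoA, had ratios of -0.12 and 0.08.

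Among the 11 later enzymes 6 were higher in both pairs and 3 were lower. TM7SF2 was at 14.2 and 11.5 FPKM in OE-PURPL and 9.78 and 9.15 FPKM in PCDNA, a log2 change of 0.39. Its same-strand neighbour VPS51 had a log2 change of 0.83. EBP, a sterol isomerase, was at 61.5 and 59.6 FPKM in OE-PURPL and 47.3 and 48.8 FPKM in PCDNA, a log2 change of 0.33. The lower enzymes were SQLE (squalene epoxidase, log2 change -0.19), CYP51A1 (lanosterol demethylase, -0.29) and MSMO1 (methylsterol oxidase, -0.23). CYP51A1 was at 47.3 and 50.7 FPKM in OE-PURPL and 56.1 and 64.1 FPKM in PCDNA. MSMO1 was at 58.3 and 71.0 FPKM in OE-PURPL and 75.4 and 76.0 FPKM in PCDNA, and SQLE at 25.0 and 28.5 FPKM in OE-PURPL and 29.7 and 31.7 FPKM in PCDNA. Both OE-PURPL libraries lay below both PCDNA libraries, on levels set across the tables, in 7 of 31 members (22.6%, against 23.4% of all genes), and above them in 12 (38.7%, against 23.5%). MVD and MSMO1, with 3 and 4 CCAAT boxes in the 250 bases searched, had opposite signs, but they were chosen for display by these changes. Of the other members with at least 3 boxes in a promoter, MVK, FDPS, NSDHL and EBP were higher in both pairs and IDI1 was lower. Over all 31 members tested, 15 were higher in both pairs and 10 were lower. MVK, FDPS, NSDHL and EBP also had transcripts of higher GC content (50.5% to 58.2%) than IDI1 (41.1%). Whether the boxes bear on the change was not tested. ABCA1, the efflux transporter driven by the liver X receptors (chr9:104781002-104928237, minus strand), was at 4.04 and 4.75 FPKM in OE-PURPL and 5.35 and 7.03 FPKM in PCDNA, a log2 change of -0.41 (adjusted p = 0.361). NR1H2 was at 63.4 and 52.0 FPKM in OE-PURPL and 48.7 and 46.2 FPKM in PCDNA, a log2 change of 0.27. The ratios of this comparison moved with transcript length and GC content across 13339 genes (Spearman 0.46 and 0.37 for GC content, -0.34 and -0.36 for length; genes share their libraries and are not replicates). With that trend removed, 11 of 31 members were higher in both pairs and 9 were lower, where 3893 and 3865 of the 13339 genes were. The count of higher members was thus smaller than the 15 found before removal. The log2 change then became 0.38 for MVD, 0.26 for PMVK, 0.13 for FDPS, 0.17 for TM7SF2, 0.17 for EBP, 0.08 for NR1H2, 0.08 for DHCR7 and -0.23 for ABCA1.

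In knockdown the members were mostly lower in ASO-PURPL than in ASO-NC, and again none passed the test. No gene of 14977 passed (0%), while 1225 had an unadjusted p under 0.05 (8.18%), 10 of them members. Of the 31 members tested, 21 were lower in both pairs (67.7%, against 33.4% of all genes) and 1 was higher (3.23%, against 19.3%). The median change was -0.19, against -0.04 over all genes. Among the 18 synthesis enzymes 15 were lower in both pairs, and sterol sensing had 4 of 5 lower. DHCR7 was at 80.7 and 83.1 FPKM in ASO-PURPL and 109 and 103 FPKM in ASO-NC, a log2 change of -0.37 (adjusted p = 0.582). TM7SF2 was at 20.3 and 16.9 FPKM in ASO-PURPL and 24.8 and 23.0 FPKM in ASO-NC, a change of -0.35. NSDHL, a sterol dehydrogenase, was at 23.0 and 18.7 FPKM in ASO-PURPL and 27.9 and 25.4 FPKM in ASO-NC, a change of -0.34. Both ASO-PURPL libraries lay below both ASO-NC libraries, on levels set across the tables, in 9 of 31 members (29%, against 13.1% of all genes): HMGCS1, MVK, SQLE, TM7SF2, MSMO1, NSDHL, SC5D, DHCR7 and SCAP. Both lay above in 0 members, against 8.37% of all genes. The 4 synthesis enzymes lower in both overexpression pairs were also lower in both pairs here, as were 15 of the 18 synthesis enzymes. The share of all genes lower in every pair of both comparisons was not computed, so this overlap has no background to be read against. The knockdown changes of the 4 enzymes were -0.20 for MSMO1, -0.20 for SQLE, -0.15 for CYP51A1 and -0.21 for IDI1. MSMO1 was at 99.3 and 95.6 FPKM in ASO-PURPL and 114 and 110.2 FPKM in ASO-NC. HMGCS1 was at 33.3 and 35.2 FPKM in ASO-PURPL and 45.9 and 40.4 FPKM in ASO-NC, a change of -0.32. The single higher member was HSD17B7, a ketosteroid reductase (chr1:162790702-162812817, plus strand), at 12.6 and 7.79 FPKM in ASO-PURPL and 8.28 and 6.02 FPKM in ASO-NC, a log2 change of 0.44 (adjusted p = 0.584); its groups overlapped across the 2 tables, and its pseudogene HSD17B7P2 lay between 0.361 and 1.92 FPKM.

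**Figure D4:**
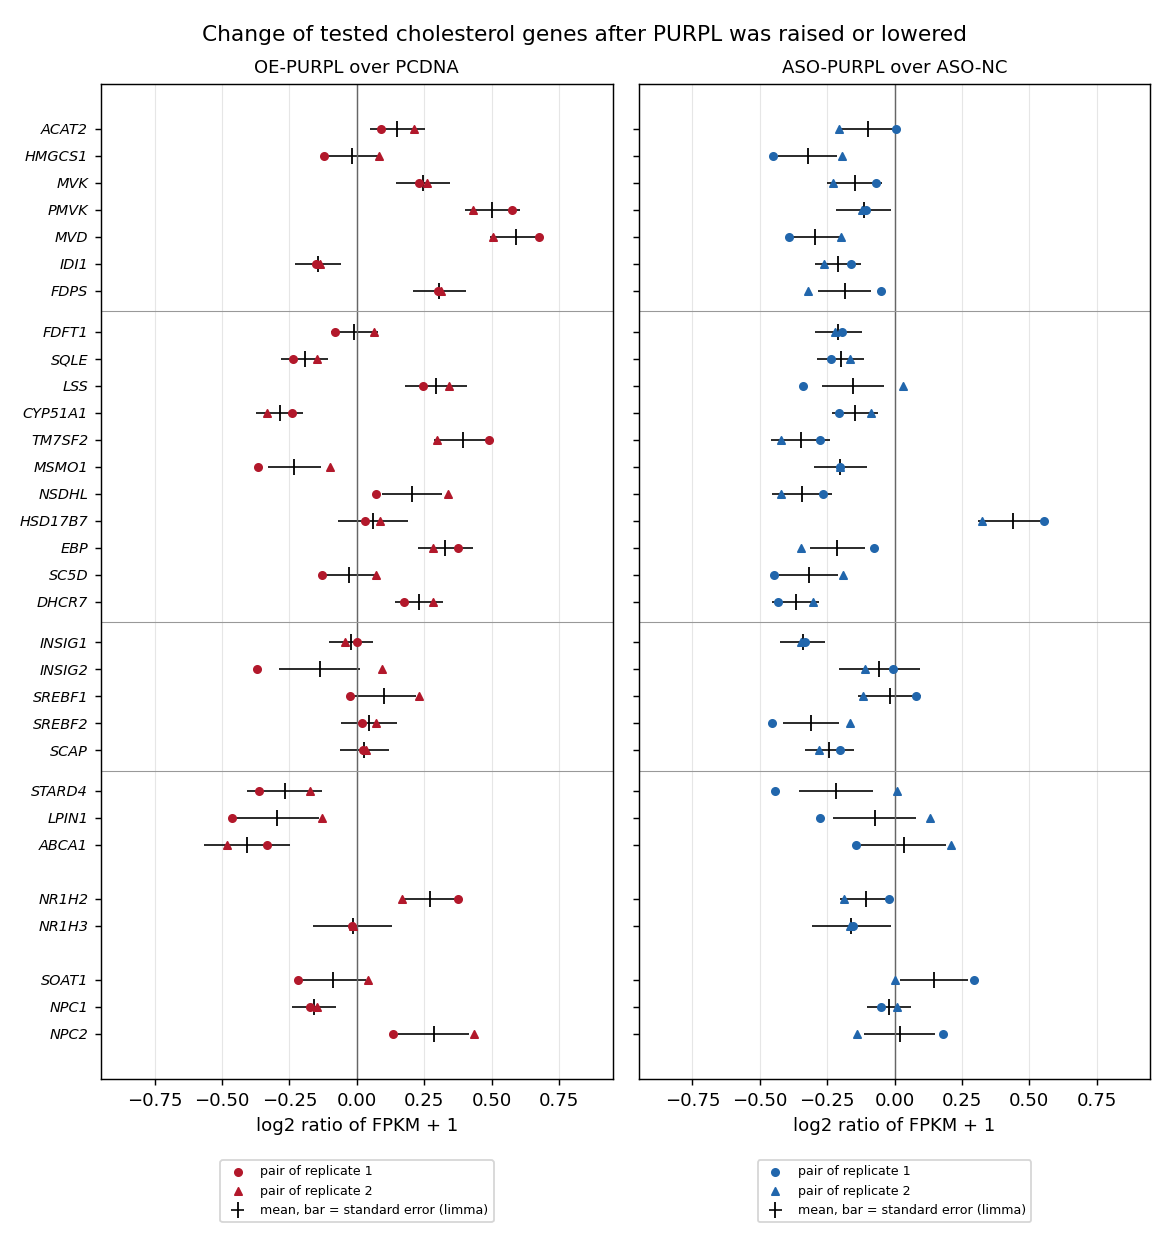
Log2 ratio of FPKM plus 1 of the 31 tested members in overexpression (OE-PURPL over PCDNA, left) and knockdown (ASO-PURPL over ASO-NC, right), with a point for each pair and a black mark for the mean with its standard error from limma; the gaps in the lowest block are the untested ABCG1 and MYLIP. Most synthesis enzymes lie left of zero in knockdown, and MVD and PMVK lie furthest right in overexpression.

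None of the 5 sensing proteins passed the test in either comparison; 3 had an unadjusted p under 0.05 in knockdown, where 8.18% of all genes did, and 0 in overexpression, where 13.8% did. INSIG1 was at 58.8 and 52.6 FPKM in OE-PURPL and 58.8 and 54.3 FPKM in PCDNA, and at 35.7 and 45.9 FPKM in ASO-PURPL and 45.3 and 58.8 FPKM in ASO-NC, a knockdown change of -0.34 (adjusted p = 0.582). INSIG2 was at 10.0 and 13.8 FPKM in OE-PURPL and 13.2 and 12.9 FPKM in PCDNA, with 5.97 and 8.52 FPKM in ASO-PURPL and 6.0 and 9.26 FPKM in ASO-NC. The INSIG2 groups within each arm overlapped. SREBF1, more tied to fatty acid genes, was at 17.0 and 15.3 FPKM in OE-PURPL, 17.4 and 12.9 FPKM in PCDNA, 18.4 and 16.9 FPKM in ASO-PURPL and 17.3 and 18.5 FPKM in ASO-NC. SREBF2, more tied to cholesterol genes, was at 31.4 and 27.9 FPKM in OE-PURPL and 31.0 and 26.5 FPKM in PCDNA, a change of 0.04, and at 28.9 and 43.0 FPKM in ASO-PURPL and 39.9 and 48.4 FPKM in ASO-NC, a change of -0.31 (adjusted p = 0.588). SCAP had changes of 0.03 in overexpression and -0.24 in knockdown.

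The remaining members were grouped under transport, storage and efflux. NPC1, which moves cholesterol out of lysosomes, was at 66.6 and 65.9 FPKM in OE-PURPL, 75.2 and 73.1 FPKM in PCDNA, 72.2 and 85.2 FPKM in ASO-PURPL and 74.8 and 84.6 FPKM in ASO-NC. NPC2 was at 520.2 and 601 FPKM in OE-PURPL, 474 and 444 FPKM in PCDNA, 795 and 395 FPKM in ASO-PURPL and 702 and 435 FPKM in ASO-NC, so its knockdown arm split by table and not by group. NR1H3 was at 3.26 and 2.38 FPKM in OE-PURPL, 3.31 and 2.41 FPKM in PCDNA, 4.20 and 2.10 FPKM in ASO-PURPL and 4.80 and 2.48 FPKM in ASO-NC. The other liver X receptor, NR1H2, was higher in every library, with 68.6 and 44.8 FPKM in ASO-PURPL and 69.7 and 51.1 FPKM in ASO-NC. ABCA1 was at 2.95 and 4.25 FPKM in ASO-PURPL and 3.36 and 3.54 FPKM in ASO-NC, with the groups overlapping. ABCG1 was at 0.01 and 0.257 FPKM in OE-PURPL, 0.0443 and 0 FPKM in PCDNA, 0.01 and 0.0255 FPKM in ASO-PURPL and 0.244 and 0.109 FPKM in ASO-NC, where 0.01 is the floor of the replicate 1 tables. MYLIP, which marks lipoprotein receptors for degradation, was at 0.963 and 1.06 FPKM in OE-PURPL, 0.766 and 0.805 FPKM in PCDNA, 0.592 and 0.362 FPKM in ASO-PURPL and 1.06 and 0.901 FPKM in ASO-NC. ABCG1 and MYLIP did not pass the filter on low values and were the 2 members not tested. STARD4, a sterol carrier, and LPIN1, a phosphatidate phosphatase, were lower in both overexpression pairs, with changes of -0.27 and -0.29. STARD4 was at 22.8 and 28.1 FPKM in OE-PURPL, 29.7 and 31.8 FPKM in PCDNA, 18.7 and 18.3 FPKM in ASO-PURPL and 25.9 and 18.1 FPKM in ASO-NC. LPIN1 was at 8.57 and 9.32 FPKM in OE-PURPL, 12.2 and 10.3 FPKM in PCDNA, 12.4 and 15.7 FPKM in ASO-PURPL and 15.3 and 14.2 FPKM in ASO-NC. In SOAT1 the libraries of each arm lay close together, with 29.1 and 29.1 FPKM in OE-PURPL and 12.7 and 11.3 FPKM in ASO-PURPL. In the transport, storage and efflux genes 5 of 8 tested were lower in overexpression in both pairs (62.5%, against 31.1% of all genes) and 2 were higher (25%, against 32.6%).

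Higher in both overexpression pairs and lower in both knockdown pairs were 11 of 31 members (35.5%, against 12.5% of all genes). The opposite pattern was seen in 0 members, but its share over all genes was not computed, so that count has no background to be read against. The 11 members had transcripts of 50.5% (NSDHL) to 64.2% GC (TM7SF2), above the median of 48.5% of genes tested, and the overexpression ratios rose with GC content. With the length and GC trend removed, the overexpression change of each was lower, and that of SCAP was -0.0673. The count of 11 was not repeated with that trend removed. The comparisons do not share controls. The contrast of the 2 changes itself passed in 3 of 14977 genes (0.02%), none of them a member. It was largest for MVD, 0.89 on the log2 scale (adjusted p = 0.35), then TM7SF2 with 0.74 and PMVK with 0.62. PCDNA enters both overexpression and the control comparison, so the PCDNA values of MVD enter each: its log2 change was 0.59 in overexpression, and its ratios of PCDNA over ASO-NC were -2.24 and -1.58.

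Other genes of the pathway came from 4 lists of names. Of the 9 genes of SREBP processing and sterol-regulated degradation 0 passed the test in either comparison; in PCDNA over ASO-NC 4 were lower in both replicates (44.4%, against 35.1% of all genes) and 3 were higher (33.3%, against 35.7%). TMEM97, a sterol-regulated membrane protein, was at 14.2 and 12.8 FPKM in PCDNA and 30.1 and 27.9 FPKM in ASO-NC. Of the 6 lipoprotein receptor and lysosomal release genes 0 passed, and 5 were lower in PCDNA in both replicates (83.3%, against 35.1% of all genes). SCARB1, a lipoprotein receptor, was at 56.9 and 55.3 FPKM in PCDNA and 153.5 and 142 FPKM in ASO-NC, while the lysosomal lipase LIPA was at 83.3 and 77.1 FPKM in PCDNA and 20.2 and 24.3 FPKM in ASO-NC.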

How the data were processed

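RNA of BJ cells was sequenced in 8 libraries of 4 groups, and the members and lists were chosen with earlier results of these data known. Per the submitters' processing notes the tools were STAR and Cufflinks and the build was hg38, without versions; annotation and strand use are not given in the sources used here. In all, the authors deposited 3 tables of values taken here as FPKM, since no header names the unit: replicate 1 of each arm in a table of its own, replicate 2 of all groups in another. The deposited log2 fold changes of replicate 1 were not used for tests. The design text names another cell line, and the labels were followed.

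A gene with a text cell was left out (1 gene). For a repeated name, the row of highest mean was taken. A gene was tested if the 4 libraries of overexpression or of knockdown averaged 1 FPKM or more (14977 genes). Log2 ratios of FPKM plus 1 were taken within a table, and limma 3.58.1 (R 4.3.3, with trend) was run on the 4 ratios of each gene, with adjustment by Benjamini-Hochberg and a threshold of 0.05. Tables that may have been normalized separately were tested only within themselves, so the fit has the replicate block. Deviations of libraries of the same number correlated with r = 0.14 and 0.49 in the overexpression and knockdown groups, and the pairing comes from the deposited tables. The fit was tested on simulated data. Alternatives were other pseudocounts (0.1 and 5), no filter or one of 5 FPKM, no trend in limma, no replicate block together with quantile normalization, centring, removal of a length and GC trend, summed repeated names, and each pair or arm left out. Full values per library are given for up to 6 members with the largest same-sign change per comparison, up to 8 that differ most between controls, and pairs of related proteins. The labels do not say whether replicates are separate cultures, so the p-values reflect only how these libraries spread, and that spread could be technical. Promoters were searched over 250 bases.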

Additional observations from a re-analysis of the deposited data

Results flagged for a closer look

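In 11 members every overexpression pair moved up and every knockdown pair moved down (35.5%, against 12.5% of all genes tested). All 11 had a GC content above the median of genes tested, and the count was not repeated with the length and GC trend removed. The log2 change in overexpression minus that in knockdown was 0.394 for MVK, 0.617 for PMVK, 0.887 for MVD, 0.492 for FDPS, 0.743 for TM7SF2, 0.548 for NSDHL, 0.541 for EBP, 0.598 for DHCR7, 0.355 for SREBF2, 0.27 for SCAP and 0.375 for NR1H2. The difference was tested with limma, and none passed the adjustment over all genes; adjusted p ran from 0.35 to 0.432.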

How the results depend on the processing

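Of 1069 member values recomputed under the alternatives, 1033 were labelled the same. For tested changes this means the same direction and side of the threshold, and for PCDNA over ASO-NC a move within the replicate spread. The filters, the limma trend, summed repeated names and pairs of the other arm left out cannot alter a member's log2 change. Such values kept their direction by construction, so the 1033 is no measure of robustness. Leaving out a replicate also cannot move a mean PCDNA over ASO-NC ratio past the replicate spread, so those labels were fixed too. Another 28 changed sign, and 8, mean PCDNA over ASO-NC ratios of TM7SF2 and DHCR7, moved by more than the replicate spread. TM7SF2 and DHCR7 had the closest replicates of the members labelled in this way, so small moves counted for them and larger ones did not for others. No member passed the limma test in any alternative, and the lowest adjusted p of a member was 0.226. Genes past the overexpression test numbered 4; this became 2 with a pseudocount of 5, 0 with no filter on low values, 1 with the length and GC trend removed, 0 with the overexpression pairs fitted alone, and 0 to 1 with a pair left out. Knockdown gave 0 genes, and 1 with a pseudocount of 0.1. The difference gave 3, and 0 with no filter or with any pair left out. With quantile normalization and no replicate block, 5, 0 and 4 genes passed. Members lower in overexpression numbered 10, and 10 to 16 with a replicate left out. Members at least 1 lower in PCDNA numbered 5 and those at least 1 higher 1; with the trend removed 3 and 0 did, and with a replicate left out 5 to 8 and 1 to 2. Overexpression log2 changes that changed sign with the trend removed were HMGCS1 (0.0936), SC5D (0.0267), INSIG1 (0.00822), SCAP (-0.0673) and SOAT1 (0.108). Those of knockdown were SREBF1 (0.00387) and NPC2 (-0.00423). Centring on the median gave SREBF1 0.0214 and NPC1 0.0191 in knockdown. With both of these (quantile normalization and no replicate block), NR1H3 was 0.0109 in overexpression, and SREBF1 0.0208, NPC1 0.0477 and NPC2 -0.00889 in knockdown. With a pair left out, overexpression changes ran from -0.12 to 0.0825 for HMGCS1, -0.0823 to 0.0641 for FDFT1, -0.131 to 0.0722 for SC5D, -0.371 to 0.094 for INSIG2, -0.027 to 0.229 for SREBF1 and -0.22 to 0.0397 for SOAT1. Knockdown changes ran from -0.206 to 0.00521 for ACAT2, -0.34 to 0.0313 for LSS, -0.117 to 0.0804 for SREBF1, -0.445 to 0.00976 for STARD4, -0.278 to 0.13 for LPIN1, -0.142 to 0.209 for ABCA1, -0.000329 to 0.296 for SOAT1, -0.0504 to 0.00931 for NPC1 and -0.139 to 0.179 for NPC2. The cause was not tested. Read depth is unknown, and 2 pairs per comparison limit the precision.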

Other observations

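Of 12 genes of sterol transfer and oxysterol synthesis, 8 were higher in PCDNA than in ASO-NC in both replicates (66.7%, against 35.7% of all genes) and 1 was lower (8.33%, against 35.1%), and 0 passed the test in overexpression or knockdown. Among the 8, CH25H, CYP7B1 and GRAMD1C passed the filter on low values only through the overexpression arm, which holds PCDNA. The filter thus favoured their direction, and the count of 8 is to be read with that limit. CH25H (named after its values were seen), which makes an oxysterol that holds back SREBP processing, was at 3.41 and 4.44 FPKM in OE-PURPL and 2.10 and 1.14 FPKM in PCDNA, and at 1.37 and 1.01 FPKM in ASO-PURPL and 0.407 and 0.339 FPKM in ASO-NC. Its log2 changes by limma were 0.93 in overexpression (adjusted p = 0.324) and 0.67 in knockdown (adjusted p = 0.598). CH25H was higher in the treated library in 4 of 4 pairs, but the share of all genes that were so was not computed. Its levels in the knockdown arm were close to the filter of 1 FPKM or below it, so the knockdown change rests on low values. Of 11 genes of the non-sterol isoprenoid branch, which turns farnesyl and geranylgeranyl units into protein anchors, dolichol and ubiquinone, 0 passed the test; 1 was higher and 4 were lower in both overexpression pairs (9.09% and 36.4%, against 32.6% and 31.1% of all genes). In both knockdown pairs 2 were higher and 4 lower (18.2% and 36.4%, against 19.3% and 33.4%).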
